A study of Mus musculus with 2 samples.

Results

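The 10 genes described here are 7 secreted acute phase protein genes, Saa1, Saa2, Orm1, Orm2, Apcs, Hp and Hpx, and 3 genes of the signal, Il6ra, Stat3 and Socs3. They were chosen by gene symbol among the 27998 genes of the deposited tables, and each symbol was found there. Their levels come from single-nucleus RNA sequencing of livers of 12-week-old C57BL/6 mice, taken 48 h after part of the liver had been removed by surgery (partial hepatectomy, PHx). Sox9HKO mice gave the HKO library. Sox9f/f mice gave the WT library, where f/f is the usual sign for loxP sites on both alleles. Both groups had PHx, so no liver without surgery was compared. HKO is not spelt out in the labels, and the promoter that drives the deletion and any pooling of animals are not given in the sources used here. With 1 library per group, differences could not be checked against replicates or tested, and none carries a p-value. Ranges in parentheses are 95% counting intervals, computed from unique molecular identifiers (UMIs), and they cover counting error only, since nuclei of 1 library are not replicates.

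Acute phase proteins are plasma proteins that hepatocytes secrete in changed amounts when the body is injured or inflamed. Interleukin 6 (IL-6) is their main inducer in liver. It binds the receptor chain encoded by Il6ra, which joins the shared chain gp130, and kinases on gp130 then phosphorylate the transcription factor STAT3. STAT3, working with factors of the C/EBP family, turns on acute phase genes and also Socs3, whose product binds gp130 and damps the signal. In the liver the same pathway is active in the hours after partial hepatectomy, when remaining hepatocytes leave quiescence.

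Some features of the libraries touch every value below. The HKO library had 14912 barcodes with a median of 3286 UMIs, and the WT library had 14701 with a median of 3430 UMIs. Hepatocyte-like nuclei, with all 15 hepatocyte markers detected, numbered 8638 in HKO (58.0% of kept barcodes) and 8965 in WT (61.8%), and their summed depth was 38027883 UMIs in HKO and 41473340 UMIs in WT. These nuclei fell into clusters that each belonged almost wholly to 1 library, numbered 0, 10 and 11 for HKO and 1, 6 and 9 for WT, so library and cluster cannot be told apart. Their median mitochondrial share was 0.0739% of UMIs in HKO and 0.253% in WT. A further cluster led by mitochondrial genes, with hepatocyte markers but no name given here, held 35 HKO nuclei (0.235%) and 2488 WT nuclei (17.1%). Malat1, which stays in the nucleus, had 50705 CPM in the HKO and 38128 CPM in the WT hepatocyte-like class. Summed there, 12 macrophage markers were at 162 CPM in HKO, against 208 CPM in WT, 13 endothelial markers at 127 CPM and 134 CPM in HKO and WT, and 9 neutrophil markers at 8.15 CPM and 6.99 CPM in HKO and WT, with 1 neutrophil marker at 0 in WT. The part of these differences in the results below was not tested, other than by the comparison within ranges of mitochondrial share. The libraries shared 70 barcodes. Sox9 itself was at 5.73 CPM (218 UMIs) in HKO, against 11.1 CPM (460 UMIs) in WT hepatocyte-like nuclei, where CPM stands for UMIs scaled to a class total of 1e6. The labels do not say which part of Sox9 is deleted, so this 3' tag may lie outside it and check nothing.

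The 7 secreted genes are short, with gene bodies of 1.08 kb (Apcs) to 8.53 kb (Hpx) in the GENCODE annotation of GRCm38, while Il6ra spans 49.1 kb and Stat3 54.4 kb. Saa1 (chr7:46740497-46742980, minus strand) and Saa2 (chr7:46751790-46754313, plus strand) lie 8.81 kb apart and point away from each other, with Saa3 and Saa4 close by. Their coding transcripts are identical at 572 of 606 aligned bases (94.4%), and 140 of the last 150 bases, where 3' tags fall, are identical. Orm1 (chr4:63344560-63348163) and Orm2 (chr4:63362449-63365878) lie 14.3 kb apart on the plus strand with Orm3 between them, and 149 of their last 150 transcript bases are identical. The other genes are Apcs at chr1:172893961-172895041, Hp at chr8:109575128-109579172, Hpx at chr7:105591613-105600137, Il6ra at chr3:89864059-89913196, Stat3 at chr11:100885098-100939540 and Socs3 at chr11:117966079-117970047, all on the minus strand. Counts may be shared within the Saa and the Orm pair, and the separate values of Saa1 and Saa2, and of Orm1 and Orm2, are uncertain for that reason.

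The sequences before the start of 5 of the genes that were lower in HKO (values below) are shown. Hpx, which was also lower and has a promoter entry, is not shown. IL-6 acts through sites of the kind marked here. Whether such sites have a part in the lower levels was not tested. Each line gives the 250 bases before the RefSeq start (GRCm38.p6), read 5' to 3' on the gene's strand. The RefSeq start is not always the GENCODE one. The whole Socs3 window lies inside the GENCODE Socs3 gene given above, and the end of the Saa2 window lies inside the GENCODE Saa2 gene. Capitals mark matches on either strand to TTCNNNGAA (a STAT3 motif), CTGGGAA (the IL-6 response element motif), TTNNGCAA (a C/EBP motif) or GGANTTTCC (an NF-kB motif). The windows are Saa1 at chr7:46742981-46743230 (minus), Saa2 at chr7:46751583-46751832 (plus), Orm2 at chr4:63362199-63362448 (plus), Apcs at chr1:172895055-172895304 (minus) and Socs3 at chr11:117969367-117969616 (minus).
Saa1: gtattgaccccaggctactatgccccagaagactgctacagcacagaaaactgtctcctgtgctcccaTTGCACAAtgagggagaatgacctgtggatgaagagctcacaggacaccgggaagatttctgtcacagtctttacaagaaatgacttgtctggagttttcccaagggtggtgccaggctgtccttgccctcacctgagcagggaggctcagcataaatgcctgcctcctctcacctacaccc
Saa2: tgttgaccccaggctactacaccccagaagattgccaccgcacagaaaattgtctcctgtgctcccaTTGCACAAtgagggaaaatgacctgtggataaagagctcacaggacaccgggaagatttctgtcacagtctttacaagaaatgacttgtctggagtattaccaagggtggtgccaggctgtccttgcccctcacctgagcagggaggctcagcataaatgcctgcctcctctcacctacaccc
Orm2: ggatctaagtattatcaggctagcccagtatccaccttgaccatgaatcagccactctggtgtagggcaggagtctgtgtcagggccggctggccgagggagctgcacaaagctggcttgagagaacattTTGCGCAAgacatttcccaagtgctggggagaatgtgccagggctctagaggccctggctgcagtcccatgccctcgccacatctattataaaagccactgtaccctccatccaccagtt
Apcs: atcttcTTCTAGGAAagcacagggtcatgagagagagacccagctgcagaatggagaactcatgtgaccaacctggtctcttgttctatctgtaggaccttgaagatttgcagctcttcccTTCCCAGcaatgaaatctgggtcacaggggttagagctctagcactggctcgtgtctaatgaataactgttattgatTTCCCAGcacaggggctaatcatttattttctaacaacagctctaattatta
Socs3: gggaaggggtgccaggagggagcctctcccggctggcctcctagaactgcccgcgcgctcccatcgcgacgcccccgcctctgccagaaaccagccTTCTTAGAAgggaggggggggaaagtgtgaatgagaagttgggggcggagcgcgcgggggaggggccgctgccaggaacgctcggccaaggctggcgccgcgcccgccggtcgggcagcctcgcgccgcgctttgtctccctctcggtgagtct

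The Saa1 and Saa2 sequences share a C/EBP match, TTGCACAA, that begins 182 bases before the start of Saa1 and 183 bases before that of Saa2. Over the full promoter windows, which run on to 50 bases after the start, the pair is identical at 287 of 299 aligned bases (96.0%). Orm2 has a C/EBP match beginning 120 bases before its start. Apcs has 1 STAT3 match, 244 bases before its start, and 2 matches to the response element, at 129 and 52 bases, none overlapping another. Socs3 has 1 STAT3 match, 154 bases before its RefSeq start but inside the GENCODE gene. Among the 8 genes with a promoter entry, the C/EBP motif was found in 4 (the fourth is Hpx), the STAT3 motif in 2, the response element in 1 and the NF-kB motif in 0. Il6ra and Stat3 held none of these letters in this window. Of all 32851 promoters of this length, 10.8% held the C/EBP motif, 8.30% the STAT3 motif, 11.1% the response element and 1.25% the NF-kB motif. A match is a description of the letters and not a site shown to be used.

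Hepatocyte-like nuclei of the HKO library held less of each of the 7 secreted transcripts than those of the WT library. Other classes held the same transcripts at like levels (given below). The levels, ratios and folds of the secreted genes here and below are therefore not read as particular to hepatocyte-like nuclei. All 7 secreted genes and Socs3 had a log2 ratio of HKO over WT CPM of -1 or less, Il6ra had a ratio of 1 or more, and Stat3 lay between. Of the 8415 genes averaging 10 CPM or more, 4.41% were lower by that size and 2.97% were higher, and the median of all was 0.16 on the log2 scale. The 7 secreted genes together made up 0.469% of UMIs in HKO and 2.20% of UMIs in WT hepatocyte-like nuclei.

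Saa1 and Saa2 encode serum amyloid A proteins, which ride on high-density lipoprotein and are among the most inducible acute phase proteins of the mouse. Saa1 was at 1032 CPM (39231 UMIs) in the HKO library and 5258 CPM (218058 UMIs) in the WT library, 5.10-fold lower in HKO (5.04 to 5.15). Saa2 was at 665 CPM (25276 UMIs) in HKO, against 5129 CPM (212717 UMIs) in WT, and at 7.72-fold lower (7.62 to 7.82) it had the lowest ratio of the 10 genes, with 19 of the 8415 genes lower still. The intervals of these folds do not overlap, so HKO lay further below WT for Saa2 than for Saa1 by more than counting error, with the limit of shared reads given above.

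Orm1 and Orm2 encode orosomucoids, acid glycoproteins that bind drugs and lipids in plasma, and Apcs encodes serum amyloid P component, a pentraxin that binds amyloid and chromatin and is the main acute phase pentraxin of the mouse. Orm1 had 446 CPM in HKO, against 1997 CPM in WT nuclei, 4.48-fold lower in HKO (4.41 to 4.55). Orm2 had 129 CPM in HKO, against 764 CPM in WT nuclei, 5.90-fold lower (5.73 to 6.09). Apcs had 73.7 CPM in HKO, against 383 CPM in WT nuclei, 5.19-fold lower (4.99 to 5.4). All 3 folds rest on at least 2803 UMIs in either library, and the libraries' intervals do not overlap.

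Hp and Hpx encode haptoglobin and haemopexin, which bind free haemoglobin and free haem in plasma. Hp was at 1156 CPM in HKO, against 3954 CPM in WT nuclei, 3.42-fold lower in HKO (3.38 to 3.45). Hpx was at 1188 CPM in HKO, against 4474 CPM in WT nuclei, 3.77-fold lower (3.73 to 3.81). These were the smallest differences among the 7 secreted genes. Haemoglobin transcripts (4 genes) came to 36.3 CPM in the HKO class and 2.17 CPM in the WT class, all 4 higher in HKO, and their part in these values was not tested.

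**Figure D1:**
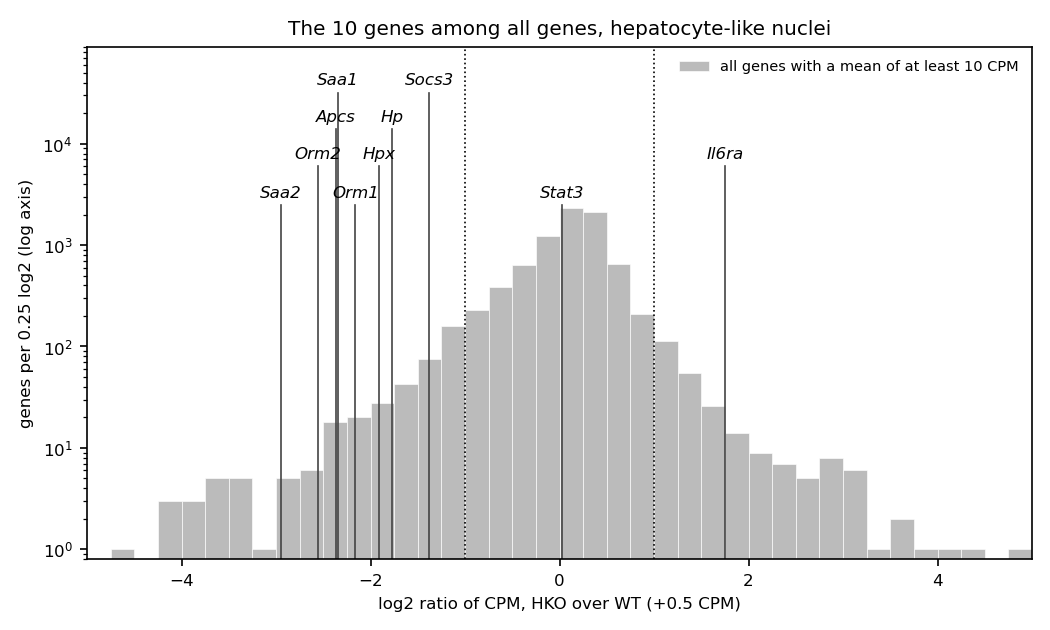
Histogram of the log2 ratio of HKO over WT CPM (x axis) for the 8415 genes averaging 10 CPM or more in hepatocyte-like nuclei, with the number of genes per 0.25 log2 on a log axis; vertical lines mark the 10 genes at heights chosen for legibility and dotted lines mark -1 and 1. The 7 secreted genes lie between -2.95 (Saa2) and -1.77 (Hp), Socs3 at -1.38, Stat3 at 0.03 and Il6ra at 1.75.

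The 3 genes of the signal did not move together. Il6ra was higher in HKO, at 457 CPM (17382 UMIs), against 136 CPM (5633 UMIs) in WT, a fold of 3.37 for HKO over WT (3.27 to 3.47), and 56 of the 8415 genes had a higher ratio. Stat3 was at 420 CPM in HKO, against 410 CPM in WT, a fold of 1.02 (1.0 to 1.04), and its log2 ratio changed sign with the scaling, at 0.03 by class total and -0.09 by TMM factors, which scale the libraries to a trimmed mean of gene ratios. Socs3, the feedback inhibitor, was at 19.9 CPM (758 UMIs) in HKO, against 52.6 CPM (2183 UMIs) in WT, 2.64-fold lower in HKO (2.43 to 2.87). TMM and median ratio factors moved the median log2 ratio of all genes to 0.04, and against that Stat3 lay below the median under each of these scalings.

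Within the hepatocyte-like class, Saa2, Il6ra and Socs3 differed less between clusters of 1 library than between the libraries. Saa2 was at 632, 995 and 665 CPM in HKO clusters 0, 10 and 11, and at 5251, 5099 and 4504 CPM in WT clusters 1, 6 and 9. Il6ra was at 457, 497 and 403 CPM in the HKO clusters and at 141, 135 and 111 CPM in the WT clusters. Socs3 was at 19.7, 24.2 and 17.0 CPM in the HKO clusters and at 52.9, 59.2 and 43.3 CPM in the WT clusters. Pericentral genes such as Glul led clusters 10 and 6, and cycling genes led clusters 11 and 9. The clusters of HKO and those of WT did not overlap for these 3 genes.

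The transcripts were also counted in single nuclei after each nucleus had been thinned to 2000 UMIs, which left 7672 HKO and 8883 WT hepatocyte-like nuclei and left out 966 and 82 shallower ones. Orm2 had a UMI in 21.3% of HKO nuclei (20.4 to 22.3), against 79.2% of WT nuclei (78.4 to 80.1), or 37.5% and 95.7% before thinning. Il6ra had a UMI in 58.3% of HKO nuclei (57.2 to 59.4), against 23.3% of WT nuclei (22.4 to 24.2), or 77.7% and 42.8% before thinning. Socs3 had a UMI in 3.61% of HKO nuclei (3.2 to 4.05), against 10.0% of WT nuclei (9.39 to 10.7), or 8.17% and 20.7% before thinning. The HKO shares were thus lower for Orm2 and Socs3 and higher for Il6ra. Endothelial-like nuclei, which should lack the secreted transcripts, had Orm2 in 23.3% of HKO and 86.0% of WT nuclei at the same thinned depth (median depths before thinning were 2063.5 UMIs in HKO and 3264.5 UMIs in WT endothelial-like nuclei, and 3922 UMIs in HKO and 3899 UMIs in WT hepatocyte-like nuclei). The Orm2 share of hepatocyte-like nuclei was therefore at or under this background, and it is not read as expression in single nuclei. For Il6ra the endothelial-like shares were lower than the hepatocyte-like ones, at 45.8% in HKO and 17.7% in WT. It was 56.9% in HKO T/NK-like nuclei (48.4 to 65.2) and 23.6% in WT macrophage-like nuclei (21.0 to 26.3). The hepatocyte-like Il6ra share was thus not above that of every other class by more than counting error. For Socs3 they were 4.26% in HKO and 8.88% in WT (7.27 to 10.7), so in neither library was the Socs3 share of hepatocyte-like nuclei above this level by more than counting error, and it is not read as expression in single nuclei.

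The same directions appeared in every other class that could be compared. Endothelial-like, macrophage-like, stellate-like and T/NK-like nuclei each had 9 of the 10 genes above a mean of 50 CPM (all but Socs3), and in each class the 7 secreted genes were lower in HKO by the size of 1, Il6ra was higher and Stat3 lay between. The background was 4.79% of 3905 genes lower in endothelial-like, 4.24% of 4007 in macrophage-like, 4.92% of 3943 in stellate-like and 5.01% of 3876 in T/NK-like nuclei. Saa2 had log2 ratios of -3.18 in endothelial-like, -2.92 in macrophage-like, -3.37 in stellate-like and -3.33 in T/NK-like nuclei. Hp had log2 ratios of -1.97, -1.77, -2.11 and -2.04 in the same classes.

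Hepatocyte transcripts were present in all of these classes. The median of 15 hepatocyte markers, as a percentage of its level in hepatocyte-like nuclei of the same library, was 87.7% in HKO and 93.2% in WT endothelial-like nuclei, 82.4% and 85.9% in HKO and WT macrophage-like nuclei, 77.6% and 86.4% in HKO and WT stellate-like nuclei, and 92.0% and 102% in HKO and WT T/NK-like nuclei. The secreted genes stood at somewhat higher percentages, from 94.3% (Saa2) to 106% (Orm1, Orm2) in HKO and from 110% (Saa1, Apcs) to 116% (Orm2) in WT endothelial-like nuclei. The hepatocyte markers and the secreted genes were thus both present in endothelial-like nuclei near their hepatocyte-like levels, and the secreted transcripts are not read as expression by those cells.

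Il6ra, Stat3 and Socs3 are genes that other liver cells can use too. The part of those cells was not separated from the hepatocyte RNA present in every class. In HKO, Il6ra was at 78.2%, 83.1%, 69.6% and 92.6% of its hepatocyte-like level in endothelial-like, macrophage-like, stellate-like and T/NK-like nuclei. The hepatocyte markers there were at 87.7%, 82.4%, 77.6% and 92.0%. In WT macrophage-like nuclei Il6ra was at 111% and the markers at 85.9%. In WT endothelial-like, stellate-like and T/NK-like nuclei Il6ra lay below the markers. Il6ra in HKO was at 457 CPM in hepatocyte-like, 423 CPM in T/NK-like, 380 CPM in macrophage-like, 357 CPM in endothelial-like and 318 CPM in stellate-like nuclei. In WT its order was different, with macrophage-like nuclei at 150 CPM (111% of hepatocyte-like), hepatocyte-like at 136 CPM, endothelial-like at 110 CPM, stellate-like at 93.9 CPM and T/NK-like at 82.6 CPM on 38 UMIs. By counting intervals, T/NK-like overlapped hepatocyte-like and macrophage-like nuclei in HKO, and macrophage-like overlapped endothelial-like nuclei, while in WT the order was unresolved among the last 3 classes and macrophage-like nuclei (141 to 160) lay above hepatocyte-like ones (132 to 139). Macrophages are known to carry the IL-6 receptor, and the log2 ratio of Il6ra was smallest there, at 1.33, against 1.69 to 2.35 in the other 4 classes. Whether that ratio differs between classes was not tested.

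Stat3 had 357 to 407 CPM in the 4 other HKO classes and 363 to 386 CPM in the 4 other WT classes, so that its levels varied little between classes or libraries. Socs3 had 13.5 to 18.5 CPM in the 4 HKO classes and 34.5 to 60.8 CPM in the 4 WT classes, and the libraries did not overlap. These Stat3 and Socs3 levels were not separated from the hepatocyte RNA in each class either. The T/NK-like values rest on 14 UMIs in HKO and 28 UMIs in WT, and their counting interval is wide. B-like, dendritic-like and cholangiocyte-like nuclei numbered under 100 in WT and were not compared.

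**Figure D2:**
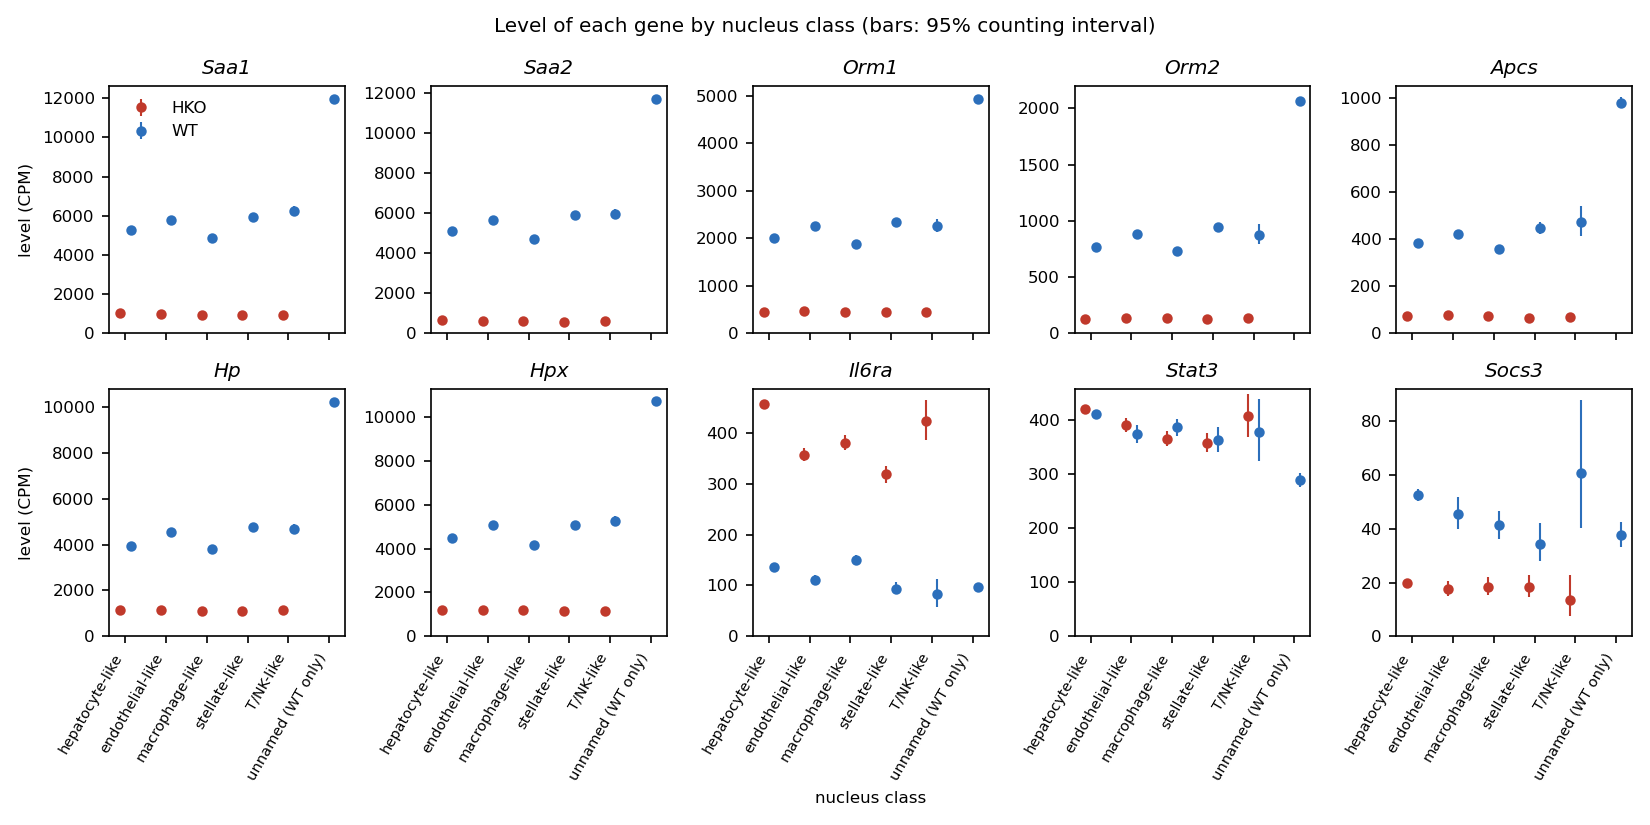
Level of each gene in CPM (linear axis from 0, a scale of its own per panel) in each nucleus class, HKO in red left of WT in blue, with 95% counting intervals; the unnamed cluster is drawn for WT only, since it held 35 HKO nuclei. The 7 secreted genes are lower in HKO in every class drawn for both libraries, Il6ra is higher, and Stat3 lies at 357 to 420 CPM in HKO and 363 to 410 CPM in WT in those classes.

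In the WT library the unnamed cluster had the highest levels of the secreted transcripts. Saa1 reached 11983 CPM and Hpx 10696 CPM in its 2488 WT nuclei, 228% and 239% of their hepatocyte-like levels, and over the 7 genes the range was 228% to 270%. Il6ra, Stat3 and Socs3 went the other way there, at 71.3%, 70.2% and 71.7% of their hepatocyte-like levels. The median mitochondrial share of these nuclei was 0.829%, the haemoglobin genes came to 99.8 CPM, and the hepatocyte markers stood at a median of 122%. With 35 HKO nuclei in the cluster, no ratio between the libraries is given for it.

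Because the libraries differed in mitochondrial share, hepatocyte-like nuclei were compared within 6 ranges of that share. There were 3162 HKO and 113 WT nuclei under 0.05%, 2026 HKO and 646 WT from 0.05 to 0.1%, 1741 HKO and 2466 WT from 0.1 to 0.2%, 1190 HKO and 4538 WT from 0.2 to 0.5%, 378 HKO and 1030 WT from 0.5 to 1%, and 141 HKO and 172 WT at 1% and over. From low to high share, Saa1 was at 840, 902, 1012, 1365, 1985 and 3410 CPM in HKO, against 3995, 4015, 4660, 5660, 6486 and 6701 CPM in WT. Every HKO value of Saa1 was below every WT value, whatever the range. Median depth was 4326 UMIs in the lowest and 3208 UMIs in the highest range of HKO, and 4874 UMIs and 3908.5 UMIs in those of WT. Orm1 was at 304, 364, 463, 667, 1100 and 1895 CPM in HKO, against 1439, 1445, 1696, 2190, 2583 and 2663 CPM in WT, and here the highest HKO range lay above the 3 lowest WT ranges.

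The secreted genes thus had higher levels in nuclei with a higher mitochondrial share, and in HKO the span was wide. Between the highest and the lowest range, the fold in HKO was 4.06 for Saa1, 6.22 for Orm1, 8.03 for Orm2 (7.15 to 9.01), 3.15 for Apcs and 4.46 for Hp, so that all 7 secreted genes passed a log2 difference of 1, against 4.71% of 8381 genes. In WT the fold was 1.68 for Saa1, 1.85 for Orm1, 2.57 for Orm2 (2.26 to 2.92), 1.72 for Apcs and 2.04 for Hp, so that Orm2 and Hp passed, against 3.58% of 8323 genes. Il6ra had folds of 0.830 in HKO and 0.704 in WT, Stat3 of 0.943 in HKO and 0.979 in WT, and Socs3 of 1.12 in HKO (0.591 to 1.95) and 1.09 in WT (0.637 to 1.90). In HKO the folds of these 3 genes lay below those of the secreted genes, while in WT the Socs3 interval held the folds of Saa1, Orm1 and Apcs. The slope of the secreted genes was not tested between the libraries.

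Within ranges of like share, the log2 ratios of the secreted genes were nearest to 0 at the highest share. In the ranges from 0.05 to 0.1%, 0.1 to 0.2%, 0.2 to 0.5% and 0.5 to 1%, 8 of the 10 genes were lower in HKO by the size of 1, against 4.36%, 4.0%, 3.65% and 3.94% of all genes. Under 0.05%, 7 were, against 5.69%, and the gene that was not was Socs3 at a log2 ratio of -0.91. At 1% and over, 2 were, Saa2 at -1.51 and Apcs at -1.48, against 5.80% of all genes. In that range Saa1 had a log2 ratio of -0.97, Orm2 of -0.85, Hp of -0.59, Hpx of -0.51 and Orm1 of -0.49. All 7 secreted genes stayed lower in HKO in all 6 ranges, and the log2 ratio of Saa2 was -2.91 in the lowest range and -1.51 in the highest. Il6ra had log2 ratios of 1.49 to 1.78 over the 6 ranges. Nuclei of the unnamed cluster are not in these counts. With all kept barcodes at 1% and over (400 in HKO, 1611 in WT), 7 of the 10 genes were lower by the size of 1, Saa1 at -1.86 among them. Of all 8838 genes measured in that set, 262 were lower by that size. The set takes in the unnamed cluster, which was almost wholly WT and had higher secreted levels, so it does not compare like nuclei.

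**Figure D3:**
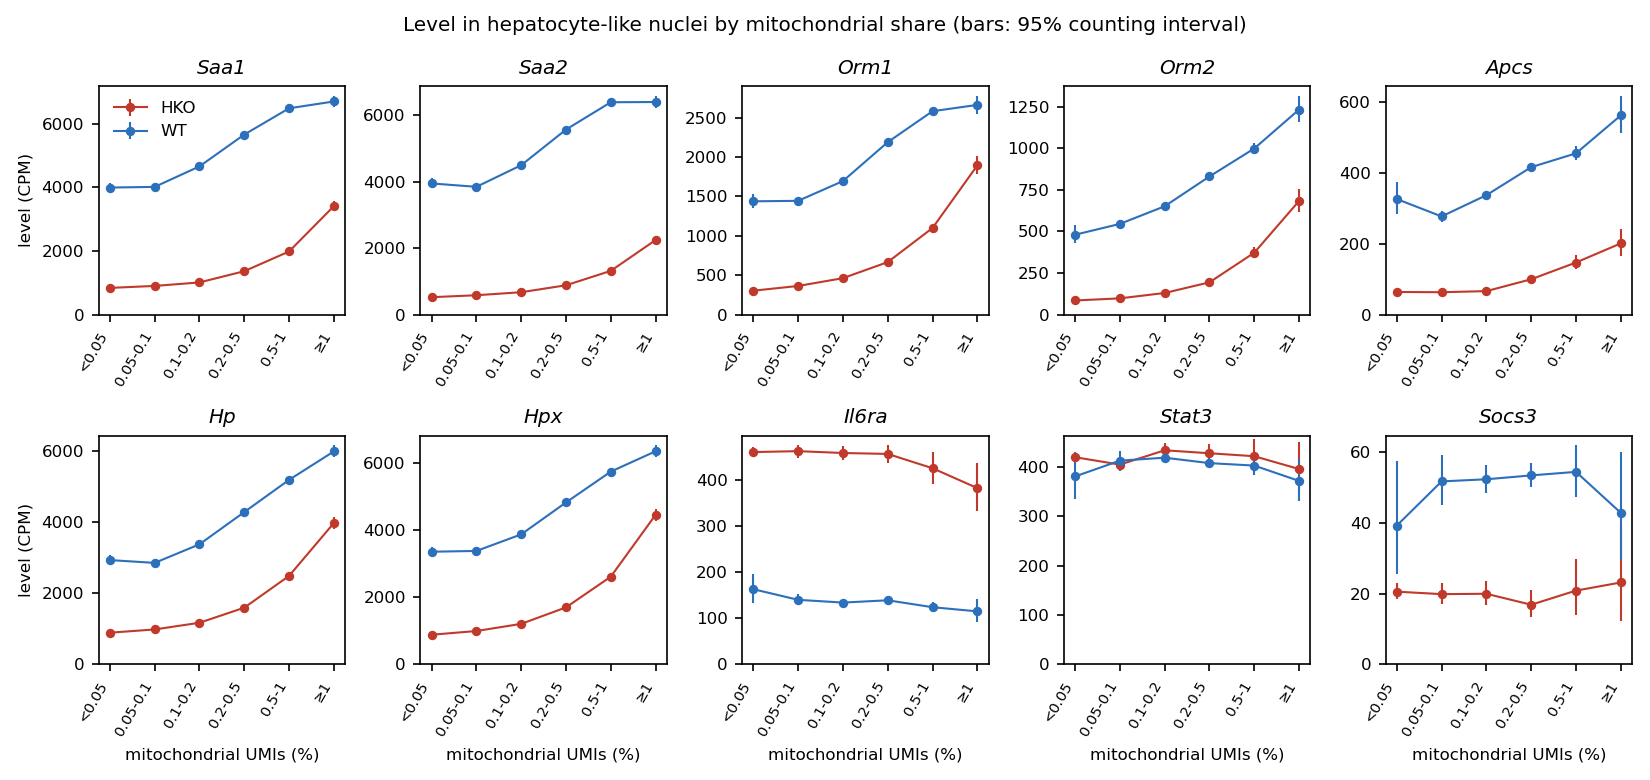
Level of each gene in CPM (linear axis from 0) in hepatocyte-like nuclei against the share of mitochondrial UMIs in 6 ranges from low to high, HKO in red and WT in blue, with 95% counting intervals; the end ranges hold few nuclei of 1 library (113 WT nuclei under 0.05%, 141 HKO nuclei at 1% and over). In HKO Saa1 spans 840 to 3410 CPM from the lowest to the highest share and in WT 3995 to 6701 CPM, while Stat3 spans 396 to 434 CPM in HKO and 372 to 419 CPM in WT.

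Hepatocytes along the lobule differ in function, from pericentral cells around the central vein to periportal cells around the portal tract. Hepatocyte-like nuclei of each library were cut into 3 equal ranges of a score of pericentral minus periportal genes, which holds none of the 10 genes. Glul, the pericentral glutamine synthetase gene, was at 363, 46.4 and 25.7 CPM in the pericentral, midlobular and periportal range of HKO and at 614, 88.4 and 59.2 CPM in those of WT. The ranges are stretches of a score and not types, and 1359 HKO nuclei (15.7%) and 1362 WT nuclei (15.2%) lay within 0.1 SD of a border. The median nucleus held 14, 6 and 3 UMIs of the pericentral list and 22, 33 and 46 of the periportal list in HKO, and 23, 11 and 7 and 17, 25 and 36 in WT, so that each range still held transcripts of the other end.

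In HKO the serum amyloid genes and Orm2 were higher in the pericentral than in the periportal range, while in WT their levels were nearly flat. The part of RNA shared by all classes in these levels, and in the flat WT ones, was not tested. Saa2 was at 905, 660 and 442 CPM in the pericentral, midlobular and periportal range of HKO, a pericentral over periportal fold of 2.05 (1.98 to 2.12), and at 5090, 5181 and 5117 CPM in WT, a fold of 0.995 (0.984 to 1.01). Saa1 was at 1330, 1018 and 764 CPM in HKO, a fold of 1.74 (1.70 to 1.78), and at 5160, 5276 and 5339 CPM in WT, a fold of 0.966 (0.957 to 0.976). Orm2 was at 168, 128 and 94.5 CPM in HKO, a fold of 1.78 (1.66 to 1.91), and at 783, 757 and 752 CPM in WT, a fold of 1.04 (1.01 to 1.07). Saa2 in HKO was the only 1 of the 10 genes past a log2 difference of 1 between the ends in either direction, where 1.97% of 8340 genes in HKO and 2.09% of 8317 genes in WT were.

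The other secreted genes showed smaller zonal folds. Apcs had 1.29 in HKO (1.18 to 1.42) and 1.03 in WT (0.994 to 1.07), Orm1 had 1.20 in HKO and 0.927 in WT, and Hp had 1.19 in HKO and 0.958 in WT. Hpx had 0.997 in HKO (0.974 to 1.02) and 0.876 in WT (0.866 to 0.886) over all nuclei, and in WT it was thus lower in the pericentral range. In HKO its fold within ranges of mitochondrial share was different (given below). Socs3 was higher in the pericentral range of both libraries, with 24.3, 18.6 and 17.1 CPM in HKO, a fold of 1.42 (1.19 to 1.70), and 59.5, 51.5 and 46.9 CPM in WT, a fold of 1.27 (1.14 to 1.41). Il6ra had 1.06 in HKO and 0.940 in WT, and Stat3 had 1.01 in HKO and 0.948 in WT.

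Median mitochondrial shares were 0.0810%, 0.0750% and 0.0664% in the pericentral, midlobular and periportal range of HKO and 0.25%, 0.251% and 0.259% in those of WT, so the share moved with the zone in HKO. Within the 4 ranges of mitochondrial share that could be compared in each library, the pericentral over periportal fold in HKO was 1.84 to 1.87 for Saa2, 1.56 to 1.63 for Saa1 and 1.33 to 1.5 for Orm2. The zonal fold of these 3 genes in HKO was thus above 1 within each range of share and below its value over all nuclei. For Orm1 it was 0.968 to 1.05 and for Hp 1.01 to 1.14 in HKO, smaller than over all nuclei. For Hpx in HKO it was 0.824, 0.867, 0.921 and 1.02 from low to high share. Only the interval of the last (0.964 to 1.08) held 1, so at lower shares Hpx was lower in the pericentral range of HKO too. In WT the fold of Hpx was 0.797 to 0.896. For Socs3 it was 1.07 to 1.51 in HKO and 1.24 to 1.42 in WT.

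The libraries' difference held in each zonal range. In the pericentral, midlobular and periportal range, 8 of the 10 genes were lower in HKO by the size of 1 and Il6ra was higher, against 3.94%, 4.69% and 5.04% of all genes lower. The log2 ratio of Saa2 was -2.49, -2.97 and -3.53 in the 3 ranges, that of Hpx was -1.83, -1.89 and -2.02, and that of Socs3 was -1.27, -1.45 and -1.43. Over the 7 secreted genes the median was -1.99, -2.29 and -2.57.

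**Figure D4:**
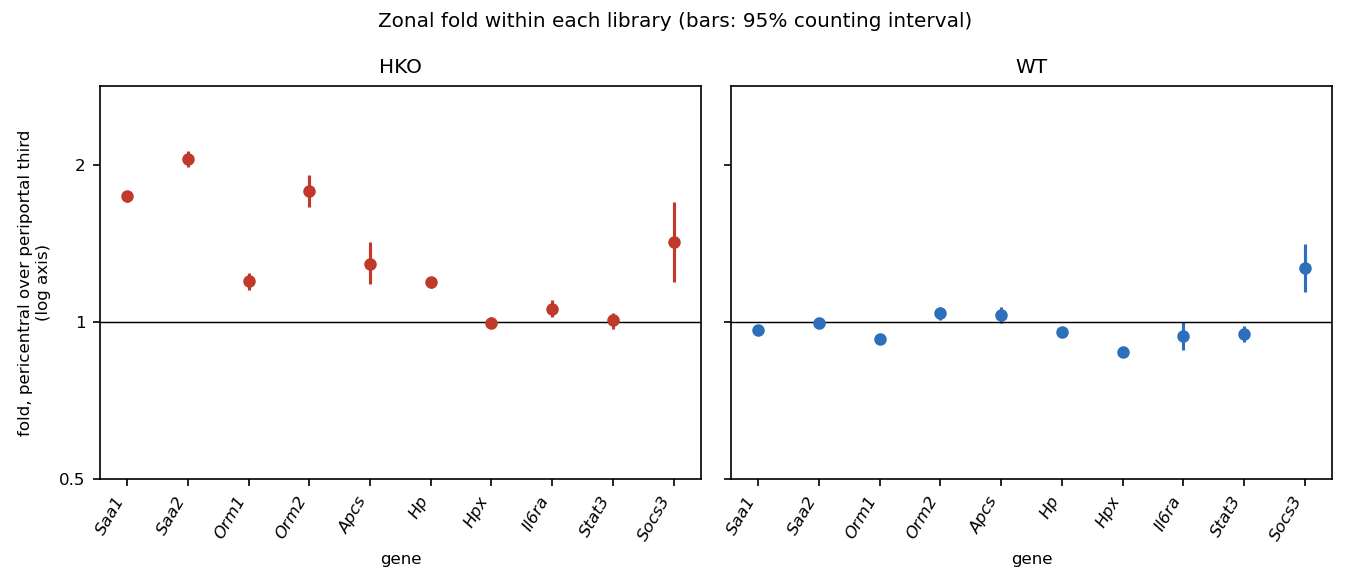
Fold of the pericentral over the periportal range of hepatocyte-like nuclei for each gene (log axis), HKO on the left and WT on the right, with 95% counting intervals and a line at 1. In HKO Saa1, Saa2 and Orm2 lie at 1.74 to 2.05, while in WT they lie at 0.966 to 1.04.

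Other acute phase genes were set beside the 10. Of 32 further genes for positive acute phase proteins, 26 were measured in hepatocyte-like nuclei, 7 were lower in HKO by the size of 1, 1 was higher and 18 lay between, with a median log2 ratio of -0.66 against 0.16 for all genes. Of all 8415 genes measured, 4.41% were lower and 2.97% higher by that size. Lrg1, a leucine-rich plasma glycoprotein, was at 142 CPM in HKO, against 509 CPM in WT, Fgb and Fgg, fibrinogen chains, at 1178 and 1135 CPM in HKO and at 3923 and 3230 CPM in WT, and C3, the central complement protein, at 1262 CPM in HKO, against 3318 CPM in WT. Fga, Itih4 and Pigr were also lower by that size. The list was not uniform, since Crp had a log2 ratio of -0.13, Hamp of -0.24, Serpina3n of 0.11 and Mt1 of 0.46, and Orm3, the neighbour of Orm1 and Orm2, was higher in HKO at 30.6 CPM, against 13.4 CPM in WT (these 5, and the 3 before them, were chosen after their values were seen).

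Negative acute phase proteins are those that fall when the positive ones rise. A list drawn up for them held mostly genes of plasma proteins, and Cyp7a1, whose product is an enzyme and no plasma protein. Whether each listed gene, the antitrypsin genes Serpina1a and Serpina1b among them, belongs there was not checked. Of 14 measured, 7 were lower in HKO by the size of 1, 1 was higher and 6 lay between, against 4.41% lower and 2.97% higher of all genes, with a median log2 ratio of -1.04 against 0.16 for all genes. Serpina6, the corticosteroid carrier, was at 4.15 CPM in HKO, against 55.5 CPM in WT, Trf, transferrin, at 598 CPM in HKO, against 2848 CPM in WT, and Serpina1b, an antitrypsin, at 173 CPM in HKO, against 664 CPM in WT. Cyp7a1, which encodes the rate-limiting enzyme of bile acid synthesis, was the higher one, at 286 CPM in HKO, against 69.3 CPM in WT. Alb, the albumin gene, was at 2538 CPM in HKO, against 5966 CPM in WT (chosen after its values were seen).

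Receptors, kinases and transcription factors around the pathway made up the other lists. Of 11 genes for IL-6 family ligands and receptors 4 were measured, with 1 lower in HKO, against 4.41% of all genes, and a median log2 ratio of -0.44. That gene was Lifr, the receptor of leukaemia inhibitory factor, at 349 CPM in HKO, against 829 CPM in WT. Il6st, which encodes gp130, was at 123 CPM in HKO, against 126 CPM in WT, Osmr, the oncostatin M receptor chain, at 27.2 CPM in HKO, against 37.1 CPM in WT, and Il11ra1, an interleukin 11 receptor, at 19.6 CPM in HKO, against 26.7 CPM in WT. Il6 itself was near the floor of detection, at 0.0789 CPM (3 UMIs) in HKO, against 0.241 CPM (10 UMIs) in WT hepatocyte-like nuclei.

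Of 18 genes for JAK-STAT signal and its inhibitors 14 were measured, with a median log2 ratio of 0.19. Among those described here were the phosphatase Ptpn2 at a log2 ratio of 0.47, the inhibitor Socs7 at 0.42 and the phosphatase Ptpn11 at 0.36. Of 24 genes for acute phase transcription factors and the interleukin 1 and tumour necrosis factor arm, 16 were measured and 0 passed the size of 1, against 4.41% lower and 2.97% higher of all genes, so a count of 0 in a list this short is near the background. Their median log2 ratio was 0.15. Junb at -0.57, Tnfrsf1a at -0.52, Hnf4a at 0.52 and Bcl3 at -0.51 had the largest absolute log2 ratios among those 16. Fos, an immediate early transcription factor, averaged under the floor of 10 CPM and is not among them, at 1.97 CPM in HKO, against 17.7 CPM in WT (chosen after its values were seen).

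Over 10 units (5 classes in each library), the 3 genes whose log2 CPM ran closest to the summed 7 secreted genes were Serpina1c, Apoa1 and Apoc1, each with a Pearson r of 0.999 among 3935 genes compared. For Socs3 they were Ap1ar (0.992), Slc27a5 (0.984) and Cyp2d10 (0.984). The units share 2 libraries and the hepatocyte RNA present in every class, so these coefficients are a description. Across nuclei thinned to 2000 UMIs, counts of Saa1 and Saa2 had a Pearson r of 0.38 in HKO and 0.47 in WT, and Hp and Hpx of 0.40 in HKO and 0.42 in WT. Nuclei within a library share free RNA, and Saa1 and Saa2 may also share reads.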

How the data were processed

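Nuclear RNA of 1 HKO and 1 WT liver library was counted from 3' tags in droplets (10x Genomics). Groups were read from the sample titles, because the field for genotype gives an age. The deposited values are raw counts of UMIs per gene and barcode, not normalized, per the file headers and the values. The count files' headers and the submitters' processing notes name Cell Ranger 5.0.0. The notes list STAR, Seurat 3.2.0 and the build GRCm38 as well, without saying what each was used for, and no source used here says whether intronic reads were counted. The labels' extract protocol describes total RNA, while the molecule field says nuclear RNA.

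Kept barcodes had 500 genes or more and a mitochondrial share under 10% (14902 in HKO, 14515 in WT). Both libraries were clustered together in scanpy 1.11.5 (2000 variable genes, 30 components, 15 neighbours, shared-neighbour weights, leidenalg 0.10.2 at resolution 0.5), without batch correction or a doublet caller. A cluster of another class was named from at least 3 markers, and a set share of those detected, above the other nuclei by a log2 of more than 1. A remaining cluster was named hepatocyte-like from at least 3 hepatocyte markers above the named other classes of its library, by any margin. In the hepatocyte-like clusters only 0 or 1 of the 15 hepatocyte markers passed a log2 of 1 above all other nuclei. How many markers had to be detected (5 at 20 CPM), and that a cluster with 2 or more mitochondrial or haemoglobin genes among its 10 leading genes stays unnamed, was set after the data were seen. UMIs were added up over the nuclei of a class in each library and scaled to a total of 1e6 (CPM). A ratio is log2((HKO CPM + 0.5) / (WT CPM + 0.5)), taken for genes averaging 10 CPM or more (50 CPM in other classes with at least 100 nuclei in each library), and a log2 difference of 1 either way is the size used. Intervals are at 95%, exact Poisson for a level, exact conditional for a fold and Clopper-Pearson for a share. The precision is that of 61123904 UMIs in HKO and 64609301 UMIs in WT.

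The 10 genes, the lists and the alternatives were chosen with earlier results of these data known. Named genes are all 10, from each list the 4 or fewer with the greatest absolute ratio, and the 3 genes with the most similar pattern to the secreted sum and to Socs3. A result on the JAK-STAT list that this rule would name, with the counts that rest on it, is not reported here. Of the 24 listed transcription factor and cytokine arm genes, 23 were in the files, and Cebpd is not analysed here. Coordinates come from GENCODE vM21, which matched 27645 of 27998 gene IDs, and promoters from RefSeq, which matched 8 of the 10. Alternatives covered scaling (TMM in edgeR 4.0.16, median ratio factors), thinning, floors, filters, clustering and mitochondrial share. The ratio and interval calculation was tested on simulated data.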

Additional observations from a re-analysis of the deposited data

Results flagged for a closer look

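For 3 secreted genes the pericentral over periportal fold lay above 1 in HKO and below 1 in WT with a counting interval that left out 1 in both libraries. Saa2, at 2.05 in HKO and 0.995 in WT (0.984 to 1.01), also lay on both sides, but its WT interval held 1. Saa1 had a fold of 1.74 in HKO and 0.966 in WT, Orm1 of 1.20 in HKO and 0.927 in WT, and Hp of 1.19 in HKO and 0.958 in WT. With 1 library per group the difference was not tested. When the outer of 5 equal ranges of the score were compared, the fold was 1.90 in HKO and 1.0 in WT for Saa1, 1.25 in HKO and 0.940 in WT for Orm1, and 1.20 in HKO and 0.980 in WT for Hp, so Saa1 in WT no longer lay below 1. Within ranges of mitochondrial share the HKO fold was 1.56 to 1.63 for Saa1, 0.968 to 1.05 for Orm1 and 1.01 to 1.14 for Hp.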

How the results depend on the processing

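In hepatocyte-like nuclei 17 alternatives left 8 genes lower and 1 higher in HKO by the size of 1, except a floor of 50 CPM, under which 7 of 9 measured genes were lower because Socs3 fell under the floor. Clustering at resolution 1 compared fewer HKO nuclei. There, HKO clusters of 3230 and 822 nuclei with haemoglobin or mitochondrial genes among the leading ones stayed unnamed. That setting gave the lowest ratios of Saa1, Saa2 and Orm2. All 51 alternative counts of genes past the size, over classes, zones and mitochondrial ranges, stayed within 1.5 times the reported count. None of the 169 alternative ratios turned a called gene round. For the 7 secreted genes the log2 ratio nearest to 0 came from averaging over ranges of like mitochondrial share, at -1.89 for Saa1, -2.47 for Saa2, -1.59 for Orm1, -1.94 for Orm2, -1.99 for Apcs, -1.31 for Hp and -1.42 for Hpx. Il6ra lay between 1.62 and 1.81, Socs3 between -1.5 and -1.21, and Stat3 between -0.09 and 0.10, with a sign that changed with the scaling. An alternative that kept the main cluster of each library, another that took all kept barcodes, and the zonal folds within mitochondrial ranges and after thinning were added after the data were seen. No paired analysis was possible because the groups share only replicate number 1 and no test was made. Depth limits the T/NK-like values of Socs3 (14 UMIs in HKO, 28 in WT) and the ends of the mitochondrial ranges.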

Other observations

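Outside the hepatocyte-like class, Saa3, the serum amyloid gene that mouse macrophages are known to express, was at 116 CPM in HKO, against 43.1 CPM in WT macrophage-like nuclei, and at 24.7 CPM in HKO, against 41.8 CPM in WT hepatocyte-like nuclei. Its ratio between the libraries thus had opposite signs in these classes, unlike that of its neighbours Saa1 and Saa2. In WT, Saa3 was also at 46.8 CPM in endothelial-like and 54.1 CPM in stellate-like nuclei. The WT macrophage-like level was thus not above that of these classes and is not read as expression by macrophages. In HKO, Saa3 was at 31.1 CPM in endothelial-like and 49.4 CPM in stellate-like nuclei. Fos, an immediate early gene, was at 1.97 CPM in HKO, against 17.7 CPM in WT hepatocyte-like nuclei, under the floor of 10 CPM for the mean. Saa3 and Fos were chosen after their values were seen, and no difference was tested.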
